A study of Mus musculus with 6 samples.

Results

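MYC and 34 genes of its network and of ribosome biogenesis were examined in long-term hematopoietic stem cells (LT-HSCs) of old mice. The 35 genes were given as a list of names, drawn up with earlier results of these data known, and all 35 were found by their GENCODE M21 symbols among the 17500 genes of the authors' count table. The series holds bulk RNA-seq of 6 libraries from 3 mice. The 3 CD61High libraries came from the 10% of the sorted stem cells brightest for surface CD61, and the 3 CD61Low libraries from the 10% that were dimmest, 1 of each per mouse and 5000 cells a library. Both groups came from male C57/Bl6 mice of genotype WT, 22 to 24 months old, with no treatment given in the labels, and both were sorted as Lin-, Sca1+, cKit+, CD48-, CD150+ cells. CD61 is integrin beta 3, and the gates are the ends of a continuous range within cells already sorted as stem cells. The titles name 1 mouse per library, while the protocol speaks of pools, so the 3 numbers are taken as 3 animals from the titles.

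MYC is a transcription factor that binds DNA as a dimer with MAX, typically at the E-box CACGTG, and raises the output of growth genes. MYCN is a close relative of MYC that binds the same partner. Among the best known targets of MYC are genes for making ribosomes. RNA polymerase I transcribes ribosomal RNA in the nucleolus, small nucleolar ribonucleoproteins (snoRNPs) modify it, and large sets of assembly factors process it into the small (40S) and large (60S) ribosomal subunits. In mouse bone marrow, stem cells are known for a low rate of protein synthesis compared with dividing progenitors.

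Each library held between 21354130 and 26398090 counts on genes. All 10 LT-HSC markers listed for the check of the label, among them Hlf, Mecom, Fgd5, Procr, Slamf1 and Kit, had counts in all 6 libraries. Their summed share was 0.305%, 0.155% and 0.327% in CD61High of mice 1, 2 and 3, and 0.425%, 0.0987% and 0.446% in CD61Low. Their median log2 fold change was -0.58, and edgeR with the mouse as a block called Procr and Ly6a lower. The list was mixed, with 3 of the 10 fitted above 0. In CD61High, 5 of them were lower in 3 of 3 mice, against 24.7% of all genes. Only 1, Ctnnal1, at 0.90, was higher in 3 of 3, against 20.6% of all genes. Transcripts typical of mature marrow cells were also found, although the sort was for lineage-negative cells. The 20 neutrophil markers took 0.623%, 7.75% and 0.0693% of counts in CD61High of mice 1, 2 and 3, and 2.33%, 12.4% and 0.256% in CD61Low. At the smallest of these shares, those of mouse 3, the 95% Wilson intervals were 0.0683% to 0.0703% in CD61High and 0.254% to 0.258% in CD61Low. They cover counting error only, as the libraries carry no molecular identifiers. The neutrophil list was a smaller share in CD61High in 3 of 3 mice, with 1 of the 20 markers at 0 in CD61High of mouse 3 and none at 0 in the other 5 libraries. B lineage markers took 0.00554% to 0.28% in CD61High and 0.00715% to 0.333% in CD61Low, and erythroid markers took 0.0905% to 1.41% and 0.128% to 2.68%. Monocyte and macrophage markers took 0.00384% to 0.115% in CD61High and 0.0059% to 0.188% in CD61Low, and T and NK markers 0.0104% to 0.0275% and 0.0122% to 0.0335%. Of the 12 T and NK markers, 5 were at 0 in CD61High and 2 in CD61Low of mouse 3. Megakaryocyte markers took 0.156% to 0.307% in CD61High and 0.0711% to 0.291% in CD61Low. The median log2 fold change of the 10 megakaryocyte markers tested was 1.29. Of these, 7 were higher in CD61High in 3 of 3 mice, against 20.6% of all genes. With the block, edgeR called 3 of them higher, against 0.0961% of all genes. In bulk samples, fewer cells of a type and less RNA per cell cannot be told apart.

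Promoter windows of the members are shown because the E-box is the site that MYC and MAX are known for. RefSeq windows on GRCm38.p6, running from 250 bases before the transcript start to 50 after it, were found for 29 of the 35 members by symbol. Those without a window were Myc, Fbl, Rrp12, Bop1, Rrs1 and Npm1. The letters CACGTG, which read the same on both strands, stood in 7 of the 29 genes (24.1%), against 1270 of the 10971 tested genes that had a window (11.6%) and 2187 of all 27025 genes with one (8.09%). Counted by window, it stood in 7 of the members' 36 (19.4%). It stood in 1365 of the 14004 windows of tested genes (9.75%) and in 2349 of all 32851 (7.15%). The 7 were Max, Rrn3, Wdr43, Utp20, Nop2, Pes1 and Nle1. The related letters CACGCG, searched on both strands as CACGCG or CGCGTG, stood in 9 of the 29 members (31.03%) and in 19.2% of tested genes with a window. These matches are descriptions of the sequence and say nothing of binding in these cells. The windows below are given 5′ to 3′ on the gene's strand, with each CACGTG in capitals. Rrn3, the only member with a pair of matches, lies on the plus strand at chr16:13780449-13780748. Nop2 lies on the plus strand at chr6:125131633-125131932, Pes1 on the plus strand at chr11:3963725-3964024, and Max on the minus strand at chr12:76962199-76962498. Nop56, shown because it had the largest fold change of the 35, lies on the plus strand at chr2:130274162-130274461, and its window holds neither set of letters.
Rrn3: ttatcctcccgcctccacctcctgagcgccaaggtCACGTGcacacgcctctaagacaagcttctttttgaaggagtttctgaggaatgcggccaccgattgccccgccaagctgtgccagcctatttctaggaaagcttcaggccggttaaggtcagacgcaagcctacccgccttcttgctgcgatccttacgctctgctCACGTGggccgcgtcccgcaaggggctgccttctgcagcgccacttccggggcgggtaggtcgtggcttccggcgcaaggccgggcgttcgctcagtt
Nop2: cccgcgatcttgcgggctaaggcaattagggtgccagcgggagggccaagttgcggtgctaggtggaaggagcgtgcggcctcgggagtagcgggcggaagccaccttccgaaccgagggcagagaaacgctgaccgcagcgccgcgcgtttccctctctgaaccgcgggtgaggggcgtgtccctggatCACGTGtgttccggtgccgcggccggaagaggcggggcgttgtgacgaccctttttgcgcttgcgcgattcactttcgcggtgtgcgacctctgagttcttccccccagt
Pes1: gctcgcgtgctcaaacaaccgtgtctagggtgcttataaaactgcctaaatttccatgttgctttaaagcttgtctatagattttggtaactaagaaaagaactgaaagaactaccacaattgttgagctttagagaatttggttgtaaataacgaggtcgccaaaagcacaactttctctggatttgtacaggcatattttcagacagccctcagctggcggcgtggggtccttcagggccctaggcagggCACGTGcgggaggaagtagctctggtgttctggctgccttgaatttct
Max: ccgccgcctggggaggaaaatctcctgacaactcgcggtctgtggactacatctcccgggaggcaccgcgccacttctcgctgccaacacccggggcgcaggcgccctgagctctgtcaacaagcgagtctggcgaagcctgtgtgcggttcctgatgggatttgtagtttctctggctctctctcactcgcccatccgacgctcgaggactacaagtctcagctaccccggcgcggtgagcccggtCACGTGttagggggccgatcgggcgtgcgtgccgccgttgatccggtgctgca
Nop56: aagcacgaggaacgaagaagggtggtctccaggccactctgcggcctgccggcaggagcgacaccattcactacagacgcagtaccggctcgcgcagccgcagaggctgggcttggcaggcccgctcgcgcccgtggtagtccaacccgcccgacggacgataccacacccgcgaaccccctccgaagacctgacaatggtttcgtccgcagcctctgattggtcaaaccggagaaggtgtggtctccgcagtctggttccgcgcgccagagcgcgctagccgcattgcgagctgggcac
The matches in Rrn3 began 215 and 48 bases before the transcript start, that in Nop2 60 bases before it and that in Max 3 bases before it. The match in Pes1 began at base 3 of the transcript.

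Most of the 35 genes were slightly higher in CD61High in each mouse, but none of them, Myc included, passed singly in edgeR with all 3 mice. The median log2 fold change of the 35 members was 0.34, a fold of 1.27, against -0.05 over all 15610 genes tested. The fitted value was above 0 in 31 of 35 members, against 45.4% of all genes. In CD61High, 28 members were higher in 3 of 3 mice and none was lower in 3 of 3, against 20.6% and 24.7% of all genes. The median difference between the gates was 0.40, 0.38 and 0.32 in mice 1, 2 and 3, on the log2 CPM scale (CPM are counts scaled by library size, TMM-adjusted, with a prior count of 2). Over all genes it was 0.00, -0.07 and -0.01. P-values here rest on these 3 mice only. Without the block they set the difference between the gates against the spread between the libraries of a gate. With the block they set it against how that difference varies from mouse to mouse. Both spreads are estimated in part from all genes.

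In edgeR's quasi-likelihood test, 0 of 35 members had a Benjamini-Hochberg adjusted p under 0.05, against 0 of 15610 genes (0%). The lowest adjusted p among members was 0.656. At an unadjusted p under 0.05, 8 members were higher and none lower, against 3.56% of all genes on the higher side and 6.55% in either direction. With the mouse as a block in edgeR, again 0 members passed, against 40 of all genes (0.256%; 0.0961% on the higher side), and the lowest adjusted p among members was 0.0653. With the block, 18 members were higher at an unadjusted p under 0.05 and none lower, against 8.01% of all genes on the higher side and 20.8% in either direction. DESeq2 without the block called 1 member, Nop56, and 237 genes in all (1.52%; 0.826% on the higher side). DESeq2 with the block called 6 members, all higher, which were Nop56, Dkc1, Nolc1, Rrp12, Wdr12 and Gnl3. It called 2.92% of all genes on the higher side and 10.0% in either direction.

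**Figure D1:**
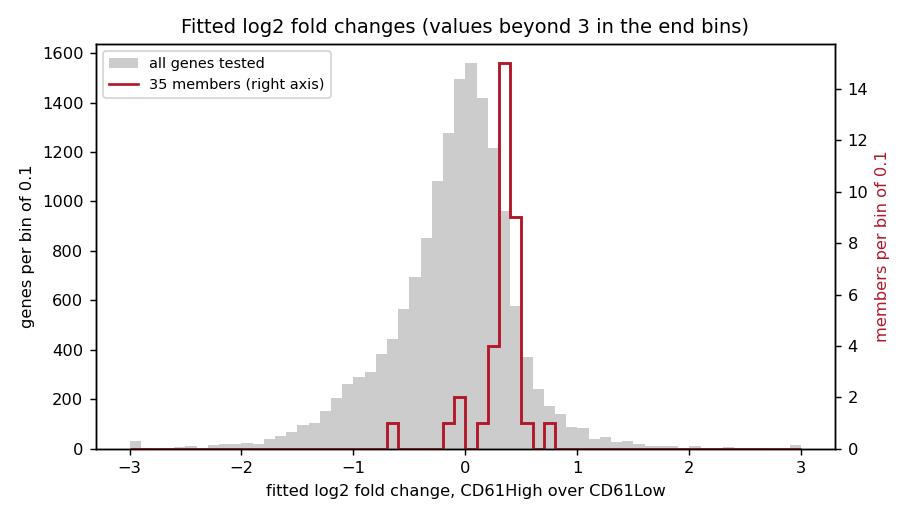
Fitted log2 fold changes, CD61High over CD61Low, of all 15610 genes tested (grey bars, left axis) and of the 35 members (red line, right axis), in bins of 0.1, with values beyond 3 in the end bins. The members centre on 0.34 and run between -0.60 for Max and 0.70 for Nop56, while all genes centre on -0.05.

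Summed levels showed the same step in each mouse. The 32 ribosome biogenesis members (all but Myc, Mycn and Max) summed to 4543, 3703 and 5042 CPM in CD61High of mice 1, 2 and 3, and to 3465, 3065 and 3902 CPM in CD61Low. The CD61High library held the higher sum in each mouse, by 1.31, 1.21 and 1.29 times. The groups overlapped, since CD61High of mouse 2 stood below CD61Low of mouse 3. Of these 32, 30 were higher in CD61High in mouse 1, 29 in mouse 2 and 30 in mouse 3, against 50.0%, 44.8% and 48.2% of all genes. Neutrophil markers were lower in CD61High beside this difference, with median log2 differences of -1.98, -0.81 and -2.59 in mice 1, 2 and 3, and their part in it was not tested. The median difference of the 35 members was 0.40, 0.38 and 0.32 in mice 1, 2 and 3. Neutrophil markers took 0.623%, 7.75% and 0.0693% of counts in CD61High of these mice, and 2.33%, 12.4% and 0.256% in CD61Low. Without both libraries of mouse 2 the median of the 35 was 0.36, with or without the block. The fit without the block then called 0 members, against 0.855% of all genes (0.450% on the higher side). At an unadjusted p under 0.05 it had 15 of the 35 members higher and 0 lower. The same fit tested 15548 genes. Among those of the 15610 genes that it kept, 1634 were higher and 1630 lower at that threshold.

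Replication genes were also higher in CD61High, but unevenly between mice. The 20 genes of a G1/S list, such as Mcm6 and Pola1, had median differences of 1.18, 0.14 and 1.77 in mice 1, 2 and 3, and a G2/M list of 20 genes had 1.08, -0.30 and 3.20. In edgeR with the block 0 of the G1/S genes passed, and 16 passed in that fit without mouse 2, against 1.85% of all genes on the higher side. With all 3 mice, DESeq2 with the block called 13 G1/S genes and 1 G2/M gene higher, against 2.92% of all genes. The members' medians were 0.40, 0.38 and 0.32 in mice 1, 2 and 3. The 19 immediate-early genes tested, such as Fos and Junb, had a median log2 fold change of -0.99. Of these, 15 were lower in CD61High in 3 of 3 mice, against 24.7% of all genes. The megakaryocyte markers described above had medians of 1.13, 1.40 and 1.16 in mice 1, 2 and 3. The LT-HSC markers had medians of -0.57, -0.13 and -0.72, with 3 of the 10 fitted above 0. The part of any of these lists in the members' difference was not tested.

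**Figure D2:**
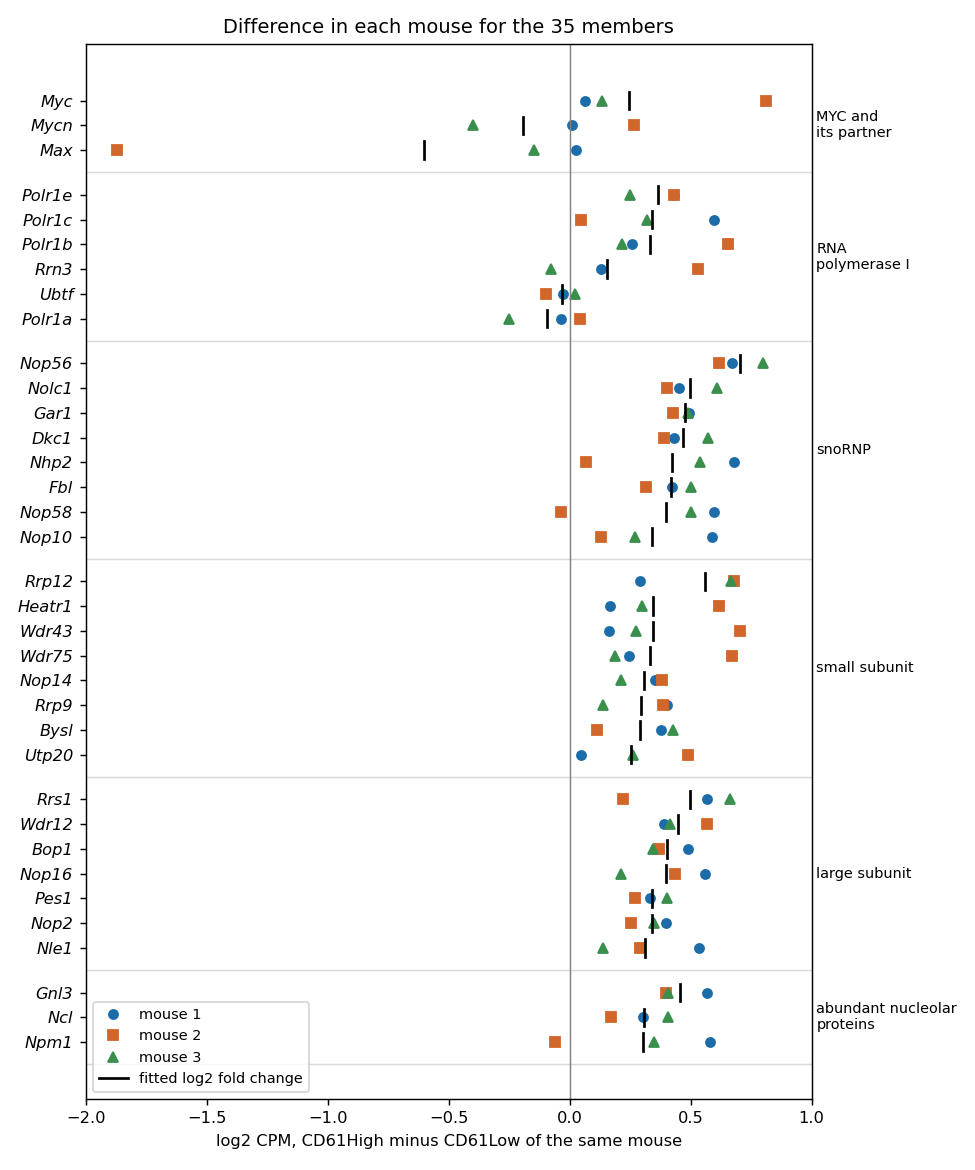
Difference in log2 CPM, CD61High minus CD61Low of the same mouse, for each of the 35 members by role (circles mouse 1, squares mouse 2, triangles mouse 3), with the fitted log2 fold change as a black bar. Most points lie right of 0, the widest exception is Max in mouse 2 at -1.87, and the small and large subunit genes lie right of 0 in each mouse.

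The MYC genes themselves differed more between mice than between gates. Myc (ENSMUSG00000022346.15, GRCm38 chromosome 15, 61985391 to 61990374) had 311, 262 and 522 CPM in CD61High of mice 1, 2 and 3, and 298, 149 and 476 CPM in CD61Low. Each mouse had more Myc in CD61High, by 0.06, 0.81 and 0.13 on the log2 scale, but the groups overlapped widely, and mouse 3 was highest in both gates. The log2 fold change was 0.25 (SE 0.47) with an adjusted p of 0.94 in edgeR. In that fit without the block it was -0.12 without CD61High of mouse 3 and -0.08 if CD61Low of mouse 2 was left out. It was 0.66 in the absence of CD61Low of mouse 3, so the direction in the unpaired fit rests on single libraries. With the block in edgeR, Myc was at 0.33 (SE 0.18, adjusted p = 0.343), and at 0.08 without both libraries of mouse 2, so the size rests largely on mouse 2. Mycn (ENSMUSG00000037169.15, chromosome 12, 12936093 to 12941914) had 488, 159 and 690.1 CPM in CD61High and 484, 132 and 911 CPM in CD61Low. Mouse 2 was lowest in both gates, and the 3 mice did not share a direction, with log2 differences of 0.01, 0.27 and -0.40. The fitted value was -0.19 (SE 0.79, adjusted p = 0.969 in edgeR), and it turned to 0.46 without CD61Low of mouse 3 and to 0.21 if CD61High of mouse 2 was left out.

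Max (ENSMUSG00000059436.13, chromosome 12, 76937269 to 76962201), the dimer partner of MYC and of its antagonists, had 90.9, 39.6 and 87.9 CPM in CD61High and 89.3, 145 and 97.4 CPM in CD61Low. Mice 1 and 3 had nearly equal levels in both gates, and the libraries of mouse 2 were the lowest and the highest of the 6. The log2 fold change was -0.60 (SE 0.37, adjusted p = 0.838 in edgeR) and was -0.08 without both libraries of mouse 2, with the block. The value of Max therefore rests on mouse 2.

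**Figure D3:**
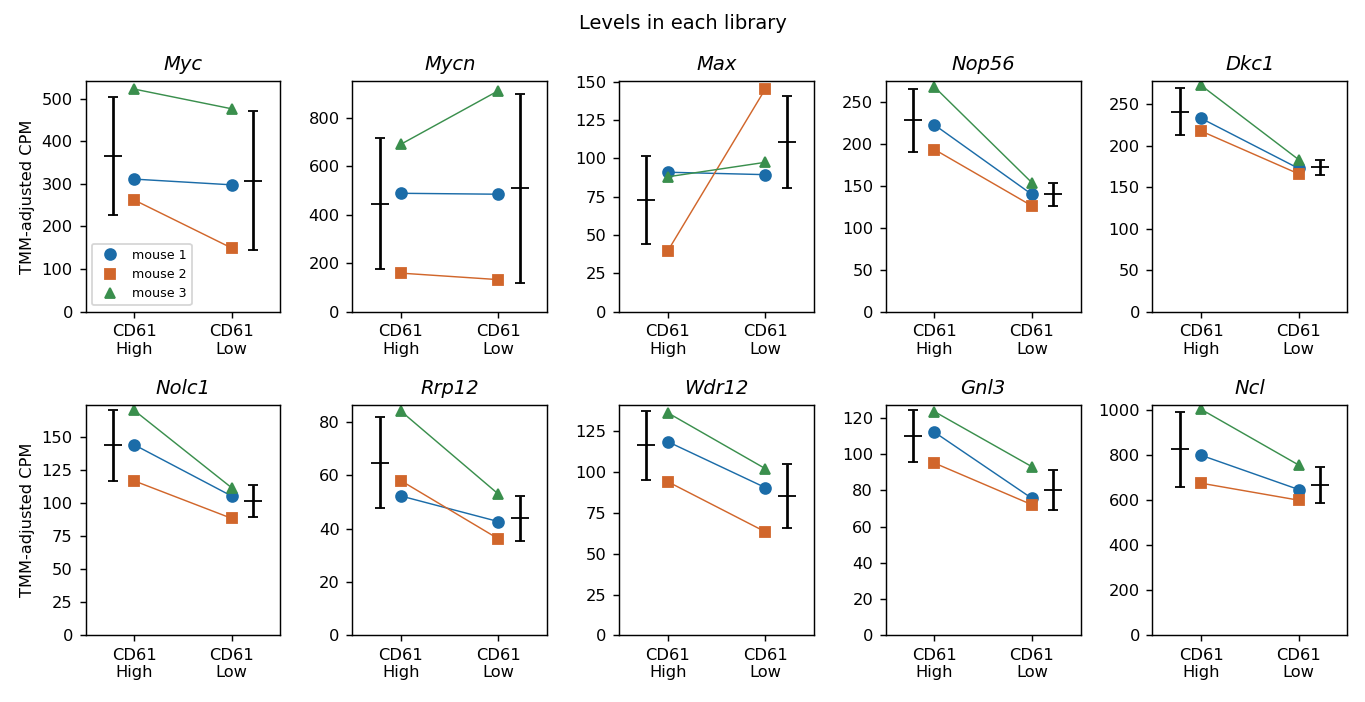
TMM-adjusted CPM of 10 members in each library, CD61High left and CD61Low right, with a line joining the libraries of a mouse and black bars for the mean and SD of 3 libraries. CD61High is above CD61Low in each mouse for Nop56, Dkc1, Nolc1, Rrp12, Wdr12, Gnl3 and Ncl, while the mice lie far apart in Myc and Mycn and disagree in Mycn and Max.

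The snoRNP genes had the highest median of the 6 roles. The 8 genes had fitted log2 fold changes between 0.34 and 0.70, with a median of 0.45, and 7 of the 8 were higher in CD61High in 3 of 3 mice. None of the 8 passed over all genes in edgeR with or without the block. In 5 of the 8, all CD61High libraries stood above all CD61Low libraries, against 8.62% of all genes on that side. Nop56 (ENSMUSG00000027405.16, chromosome 2, 130274430 to 130279313) encodes a core protein of the box C/D particles that guide ribose methylation. It had 223, 193 and 268 CPM in CD61High of mice 1, 2 and 3, and 139.7, 126 and 154 CPM in CD61Low. Every CD61High library was above every CD61Low library, and mouse 3 was highest and mouse 2 lowest in both gates. The log2 fold change was 0.70 (SE 0.18, adjusted p = 0.656) without the block in edgeR and 0.70 (SE 0.12, adjusted p = 0.0653) with it. Without both libraries of mouse 2 the blocked fit called Nop56 at an adjusted p of 0.0385, and it was then the only member of 35 to pass, against 742 of all genes (4.77%). DESeq2 gave an adjusted p of 0.02 without the block and 0.00019 with it.

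Dkc1 (ENSMUSG00000031403.14, chromosome X, 75095854 to 75109777), which encodes dyskerin, the pseudouridine synthase of box H/ACA particles and of telomerase, had 233, 217 and 272 CPM in CD61High and 172, 166 and 183 CPM in CD61Low. The groups did not overlap. The log2 fold change was 0.47 (SE 0.15) at an adjusted p of 0.676 in edgeR, and DESeq2 with the block gave 0.0272. Nolc1 (ENSMUSG00000015176.11, chromosome 19, 46075863 to 46085530), a nucleolar chaperone that binds snoRNPs, had 144, 117 and 170 CPM in CD61High and 105, 88.3 and 111 CPM in CD61Low. The lowest CD61High library, that of mouse 2, stood just above the highest CD61Low library, that of mouse 3. Its log2 fold change was 0.50 (SE 0.19, adjusted p = 0.737 in edgeR; 0.0274 in DESeq2 with the block).

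The other H/ACA proteins, Nhp2, Gar1 and Nop10, had fitted values of 0.42, 0.48 and 0.34 and were higher in CD61High in each mouse. Fbl, the methyltransferase of box C/D particles, was at 0.42 and also did not overlap between the gates. Nop58, its partner protein with Nop56, was at 0.40 but did not share the direction in mouse 2, with 133 CPM in CD61High against 137 CPM in CD61Low. Mouse 2 showed the smallest difference of the 3 in all 8 snoRNP genes. Small nucleolar RNA genes lie inside 6 members, with 5 in Nop56, 4 in Nop58, 3 each in Wdr43, Ncl and Gnl3 and 1 in Dkc1. Reads falling on 2 annotated genes were left out by the counting, and overlaps covered 8.12% of the exon length of Nop56.

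Large subunit factors were higher in CD61High in 3 of 3 mice in 7 of 7 cases. Their fitted log2 fold changes ran from 0.31 for Nle1 to 0.50 for Rrs1, with a median of 0.40, and none passed over all genes in edgeR with or without the block. Wdr12 (ENSMUSG00000026019.15, chromosome 1, 60069785 to 60098645), a WD-repeat protein of the complex with Pes1 and Bop1 that matures the 60S subunit, had 119, 94.1 and 136 CPM in CD61High and 90.5, 63.5 and 102 CPM in CD61Low. Mouse 2 was lowest and mouse 3 highest in both gates, so the groups overlapped although each mouse had more in CD61High. Its log2 fold change was 0.45 (SE 0.24, adjusted p = 0.794 in edgeR), and DESeq2 with the block gave an adjusted p of 0.0489.

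Rrs1, a factor for assembling 5S RNA into the large subunit, had 74.5, 62.0 and 84.5 CPM in CD61High and 50.2, 53.2 and 53.3 CPM in CD61Low. The CD61Low libraries were nearly equal, and all CD61High libraries lay above them. The log2 fold change was 0.50 (SE 0.16, adjusted p = 0.683 in edgeR). Bop1 had 121, 104 and 121 CPM in CD61High and 86.0, 80.2 and 95.1 CPM in CD61Low, again with no overlap, at 0.40 (SE 0.14, adjusted p = 0.715). Pes1 also did not overlap between the gates and had 0.34. Nop16 and Nop2 had 0.40 and 0.34. Nop2 is an RNA methyltransferase of the large subunit and Nop16 a nucleolar protein of 60S assembly.

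Small subunit factors were likewise higher in CD61High in 8 of 8 cases in 3 of 3 mice. In 0 of the 8 did all CD61High libraries stand above all CD61Low libraries, against 8.62% of all genes. With only 8 genes, this count is near that share. Fitted log2 fold changes ran from 0.25 for Utp20 to 0.56 for Rrp12, with a median of 0.32, and none passed over all genes in edgeR with or without the block. Their median difference was 0.27, 0.55 and 0.27 in mice 1, 2 and 3, so mouse 2 had the largest value here and the smallest in the snoRNP genes, where the medians were 0.54, 0.35 and 0.52. Without both libraries of mouse 2, with the block, the small subunit median was 0.24 and that of the snoRNP genes 0.50.

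Rrp12 (ENSMUSG00000035049.4, chromosome 19, 41862851 to 41896173), a HEAT-repeat protein needed for export of both subunits in yeast, had 52.2, 57.9 and 83.9 CPM in CD61High and 42.6, 36.1 and 52.9 CPM in CD61Low. CD61High of mouse 1 stood just below CD61Low of mouse 3. The log2 fold change was 0.56 (SE 0.25, adjusted p = 0.7525 in edgeR; 0.0485 in DESeq2 with the block). Wdr43, a subunit of the small subunit processome, had 232, 197 and 262 CPM in CD61High and 207, 121 and 217 CPM in CD61Low. The difference was largest in mouse 2, and its log2 fold change was 0.34 (SE 0.26, adjusted p = 0.881). Heatr1, a processome protein that also acts in ribosomal RNA transcription, had 97.1, 100.2 and 135 CPM in CD61High and 86.6, 65.2 and 109.9 CPM in CD61Low. It too was at its largest in mouse 2, with a fitted value of 0.35 (SE 0.25, adjusted p = 0.87). Wdr75, Nop14, Rrp9, Bysl and Utp20 were between 0.25 and 0.33. Exons of Ccnd3 cover 9.37% of the exon length of Bysl, the largest overlap among the members.

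RNA polymerase I genes were split, with a median of 0.24, which was 0.12 without both libraries of mouse 2, with or without the block. None of the 6 passed over all genes in edgeR with or without the block. Of the 6, Polr1b, Polr1c and Polr1e were higher in CD61High in 3 of 3 mice, with log2 fold changes of 0.33 (SE 0.32), 0.34 (SE 0.19) and 0.36 (SE 0.25). Their adjusted p in edgeR was 0.926, 0.803 and 0.864. Polr1b, the second largest subunit of the polymerase, had 137 CPM (mouse 1), 96.1 CPM (mouse 2) and 147 CPM (mouse 3) in CD61High, and 115, 61.1 and 126 CPM in CD61Low. Polr1e, a subunit that helps the polymerase elongate, had 50.3, 34.3 and 47.5 CPM in CD61High and 37.3, 25.4 and 39.95 CPM in CD61Low. Polr1c, shared with RNA polymerase III, had 58.2, 38.8 and 50.5 CPM in CD61High and 38.4, 37.6 and 40.4 CPM in CD61Low. In Polr1c, CD61High of mouse 2 lay among the CD61Low libraries, while the other CD61High libraries stood above them.

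The remaining members of this class lay near 0. Polr1a, the largest subunit, was at -0.09 (SE 0.20), and Ubtf, the factor that marks active ribosomal DNA, at -0.03 (SE 0.17). Rrn3, the initiation factor that couples the polymerase to growth signals and whose promoter holds the pair of E-boxes, was at 0.15 (SE 0.25) and did not share a direction between mice. Leaving out single libraries moved Polr1a between -0.24 and 0.0046, Ubtf between -0.16 and 0.04 and Rrn3 between -0.07 and 0.29.

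The abundant nucleolar proteins were Ncl, Npm1 and Gnl3. Ncl encodes nucleolin, which binds ribosomal RNA as it is made, and had 800.1, 676 and 1004 CPM in CD61High of mice 1, 2 and 3, and 648, 601 and 757 CPM in CD61Low. CD61High was higher in each mouse while the groups overlapped, at a log2 fold change of 0.31 (SE 0.20, adjusted p = 0.853 in edgeR). Npm1, nucleophosmin, a chaperone of ribosome assembly, had 417, 294 and 389 CPM in CD61High and 279, 307 and 305 CPM in CD61Low. It was the only one of the 3 to be lower in CD61High in a mouse, mouse 2, and its fitted value was 0.30 (SE 0.18, adjusted p = 0.818 in edgeR). Npm1 has processed pseudogenes, so part of its reads may have been left out as multimapping and its level is uncertain. Gnl3 (ENSMUSG00000042354.7, chromosome 14, 31012433 to 31019152), nucleostemin, a nucleolar GTPase named for its abundance in stem cells, had 112, 95.1 and 123.5 CPM in CD61High and 75.6, 72.1 and 93.1 CPM in CD61Low. Its groups did not overlap, and its log2 fold change was 0.46 (SE 0.17, adjusted p = 0.732 in edgeR; 0.046 in DESeq2 with the block).

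Levels between members were compared per kilobase of exon, as the mean over the 6 libraries of CPM divided by the length of all annotated exons. Nop10 stood highest at 149 CPM per kilobase, followed by Mycn at 145, Npm1 at 125 and Myc at 124. Nhp2 and Ncl followed at 91.8 and 73.4, and the lowest were Nle1 at 5.12, Polr1a at 4.4 and Utp20 at 3.7 CPM per kilobase. The order of the first 4 is not firm, since Mycn alone ranged from 132 to 911 CPM between libraries. Long annotated exons that these cells may not use lower this value, as in Wdr12, with 11955 bases of exon and 8.43 CPM per kilobase.

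Other genes of ribosome assembly lay mostly on the same side, with smaller medians. They were listed from general knowledge, but with earlier results of these data known, so they are no independent check. Of 42 further small subunit genes, 40 had a fitted log2 fold change above 0 and 28 were higher in 3 of 3 mice, with a median of 0.24. Of 48 further 60S genes, 44 were above 0 and 32 higher in 3 of 3 mice, with a median of 0.25. None of these passed in edgeR with or without the block, and DESeq2 with the block called 1 of the 42 and 2 of the 48, all higher, which is near its share of 2.92% of all genes on the higher side. The genes with the smallest p in the blocked fit were Utp4, Utp18, Noc4l and Tbl3 of the small subunit, at 0.49, 0.49, 0.46 and 0.44, and Grwd1, Nvl, Brix1 and Nifk of the large subunit, at 0.47, 0.62, 0.45 and 0.37. Of 15 further RNA polymerase I genes, including Taf1d, Polr2h, Twistnb and Taf1b, none passed by any of these tests, and the median was 0.15.

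Known MYC targets outside the nucleolus were on the same side as the assembly factors. Of 29 genes tested (of 30 listed), 24 were above 0, 20 were higher in 3 of 3 mice, and in 17 the CD61High libraries all stood above the CD61Low libraries, against 8.62% of all genes. Their median was 0.41, with medians of 0.50, 0.23 and 0.54 in mice 1, 2 and 3. In edgeR 0 passed with or without the block, while DESeq2 with the block called 10 higher and 1 lower, against 2.92% of all genes on the higher side and 10.0% in either direction. Cad, which starts pyrimidine synthesis, had 237, 213 and 310.2 CPM in CD61High and 159, 101 and 191 CPM in CD61Low, a log2 fold change of 0.75. Paics and Ppat, enzymes of purine synthesis, had 0.67 and 0.64, and the groups did not overlap in any of the 3. Cad (adjusted p = 0.0472) and Paics (adjusted p = 0.0344) passed in edgeR with the block in the absence of both libraries of mouse 2, and Ppat (adjusted p = 0.0626) did not. Tfrc, the transferrin receptor, which erythroid precursors carry in quantity, ran the other way at -0.78 (SE 1.57, adjusted p = 0.94 in edgeR; 0.0657 in edgeR and 8.88e-05 in DESeq2 with the block) and had 39.4, 446 and 16.2 CPM in CD61High and 102, 734 and 27.0 CPM in CD61Low. It was lower in CD61High in 3 of 3 mice and highest in mouse 2, where erythroid markers took 1.41% and 2.68% of counts in CD61High and CD61Low, and their part was not tested. Pcna belongs to this list and to the G1/S list.

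Of 17 further genes of the MYC network, 4 had a fitted value above 0, with a median of -0.29. In CD61High, 9 were lower and 3 higher in 3 of 3 mice, against 24.7% and 20.6% of all genes. The median rests partly on mouse 2, since it was -0.12 without both its libraries, with or without the block, and the medians of mice 1, 2 and 3 were -0.23, -0.19 and -0.03. None passed in edgeR with or without the block, and DESeq2 with the block called 1 higher and 1 lower, near its share of 10.0% of all genes in either direction. Mxd1, a MAX partner that opposes MYC, had 57.7, 448 and 45.8 CPM in CD61High of mice 1, 2 and 3, and 163, 799 and 60.2 CPM in CD61Low. All 3 mice had less of it in CD61High, at -0.89 (SE 1.25, adjusted p = 0.94 in edgeR; 0.00237 in DESeq2 with the block). It was highest in both libraries of mouse 2, those richest in neutrophil markers. The part of those cells was not tested. Ruvbl2, an ATPase cofactor of MYC that also helps to assemble snoRNPs, was at 0.49, and Mlxip and Mycbp2 were at -0.41 and -0.42.

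Ribosomal protein genes differed in direction between mice. Of 43 cytosolic ribosomal protein genes, 43 were higher in CD61High in mouse 1, 1 in mouse 2 and 2 in mouse 3, with medians of 0.34, -0.29 and -0.32. Over the 3 mice the median was -0.06 and none was higher or lower in all 3. These genes have many processed pseudogenes, and reads that map to several places were left out by the counting, at 10.01% to 15.6% of a library. CD61High of mouse 1 had the largest share of unmapped reads, 10.9%, against 5.41% in CD61Low of that mouse. Its part in the values of mouse 1 was not tested. Rpl23, Rpl37a, Rpl30 and Rps23, with the smallest p in the blocked fit, had -0.26, -0.22, -0.25 and -0.21. Of 10 snoRNA host transcripts tested, such as Snhg15, Zfas1, Snhg17 and Snhg8, 9 were higher in CD61High in mouse 1, 2 in mouse 2 and 4 in mouse 3. Gm42418, a long non-coding RNA overlapping an annotated ribosomal RNA on chromosome 17, had 316, 76.2 and 63.4 CPM in CD61High and 156, 387 and 167 CPM in CD61Low, and its neighbour Gm26917 had 804.5, 323 and 191 CPM in CD61High and 231, 255 and 644 CPM in CD61Low. Both scattered between libraries without a shared direction. The difference between these lists and the assembly factors was not tested.

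**Figure D4:**
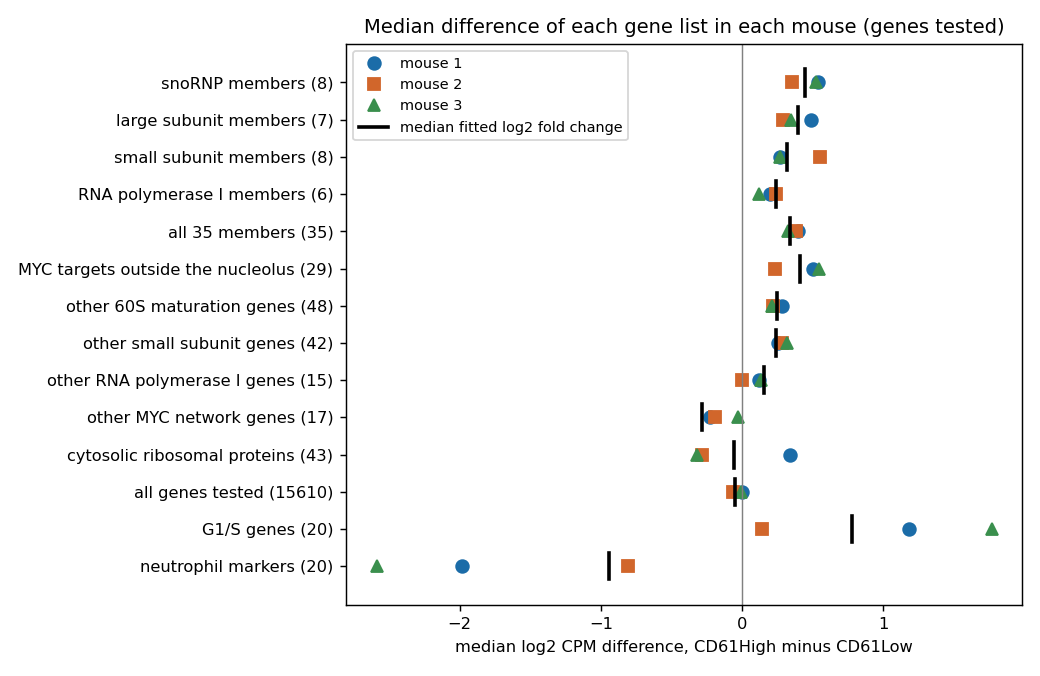
Median difference in log2 CPM, CD61High minus CD61Low, of each gene list in mouse 1 (circles), mouse 2 (squares) and mouse 3 (triangles), with the median fitted log2 fold change as a black bar and the number of genes tested in brackets. Small and large subunit lists lie right of 0 in each mouse, ribosomal proteins lie on both sides, and neutrophil markers lie between -2.59 and -0.81.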

How the data were processed

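The authors deposited raw read counts per gene, 1 table per library and 1 for the series, and 0 values differed between them. STAR 2.7 is named, with MultiQC and edgeR, per the submitters' processing notes. The genome build is not given in the sources used here, but all 55450 gene identifiers are those of GENCODE M21 on GRCm38, which gave symbols and coordinates. Per the labels' protocols, cDNA came from SMART-Seq v4 and libraries from Nextera XT kits, which do not mark strand, so the unstranded counts were used, and reads of an overlapping or antisense gene are not separable. Lines naming no gene were left out of library sizes and tests. Of a library, 4.36% to 10.9% of reads were unmapped, 10.01% to 15.6% multimapping, 2.88% to 4.21% outside genes and 3.55% to 4.37% ambiguous. Library pairs did not agree within sampling noise, with a chi-square per degree of freedom of at least 44.8 over the 15 pairs.

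Each gene was fitted in edgeR 4.0.16 (R 4.3.3) by the robust quasi-likelihood F-test, two-sided, with TMM factors, filterByExpr by group and Benjamini-Hochberg adjustment over the 15610 genes kept. All 35 members passed the low-count filter, and a call is an adjusted p under 0.05. The SE is the log2 fold change divided by the square root of F. The fit had no block, so its SE includes the spread between mice. Each SE and edgeR p-value is from this fit unless the block is named. The fit with the mouse as a block was an alternative. Libraries with the same number come from the same mouse per the titles, and their deviations from the group means correlated at 0.236, 0.806 and 0.761 in mice 1, 2 and 3, against -0.823 to 0.374 for other pairs across groups. DESeq2 1.42.0, other scalings, no filter and leaving out libraries or mice were also tried. The procedure was also run on simulated counts with known fold changes. Those were larger than the changes of most members, so the run does not show how such small differences are called. CPM are TMM-adjusted, and log2 CPM had a prior count of 2. Promoter sequences are from RefSeq.

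The members and gene lists were chosen with earlier results of these data known. Of 397 listed symbols 393 matched. Myc, Mycn, Max and the 3 members of each role with the smallest unadjusted p in the blocked fit are given in every library, the other members by fold change, range and count, and up to 4 genes of each further list by the same p.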

Additional observations from a re-analysis of the deposited data

How the results depend on the processing

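Against 0 genes called without the block in edgeR, the fit with the mouse block called 40, the block with relative log expression factors 88, DESeq2 237 and DESeq2 with the block 1566. Leaving out a library or a mouse gave 0 to 742, the highest without mouse 2 and with the block, against 133 there without it and 7 with the block and without mouse 3. Against 0 members called, DESeq2 gave 1 and DESeq2 with the block 6, and leaving out libraries or mice gave 0 to 1. The members' median of 0.34 was 0.40 with library totals alone, which moved the median of all genes from -0.05 to 0.02, and 0.25 to 0.47 over the fits without block that left out libraries or mice. With the replicate block it was 0.36, and 0.34 to 0.39 with the block and without each mouse. Of 665 values of single members over 19 alternatives, 645 kept direction and side of the threshold, 8 passed it and 12 changed sign, in 5 members. Leaving out libraries or mice gave Myc -0.12 to 0.66, Mycn -0.69 to 0.46, Polr1a -0.24 to 0.0046, Rrn3 -0.065 to 0.29 and Ubtf -0.16 to 0.037, without the block. With the block, leaving out mice gave Mycn -0.21 to 0.13. Library totals alone gave Ubtf 0.038. The cause of these differences was not tested. No member had a count of 0 in any library; what further depth would change was not tested.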
